A study of Mus musculus with 24 samples.

Results

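The genes described here were the 9 matricellular and wound matrix genes Postn, Tnc, Sparc, Thbs1, Thbs2, Fn1, Spp1, Has1 and Has2, taken by name from 22089 protein-coding genes of the mm9 annotation. Each gene was read over its body with 10 kb on each side in 17 ChIP-seq peak lists. The lists cover histone H3 acetylated at lysine 27 (H3K27ac, a mark of active promoters and enhancers) and trimethylated at lysine 4 (H3K4me3, a mark of active promoters) in 7 cultures, and the transcription factor PRRX1 in 3 of them. Mouse embryonic fibroblasts (MEF) came from embryos of day 10 to 13 and are labelled C57BL/6, cancer-associated fibroblasts (MMTV-CAF) came from mammary tumours of MMTV-PyMT mice of strain FVB/NJ, and wound-healing fibroblasts came from C57BL/6 dorsal skin at day 10 after wounding. SG cells of each type had received a guide RNA against Prrx1, and the labels give the guide control sgNS as WT. Whether WT MEF, the control of both deleted MEF, had received sgNS was not stated. KI marks a further MEF genotype that the labels do not spell out. The study describes MEF from Prrx1tm1Jfm mice, in which lacZ interrupts the Prrx1 homeodomain, and KI was read as this mutant. Every culture, WT and deleted alike, carried HPV E6/E7 for immortalisation and was grown in DMEM with serum. Each group had 1 list per mark, so no value has a replicate error and no difference could be tested. The study describes PRRX1 ChIP-seq as done in duplicate with an IgG control and peaks as called against input, and whether each PRRX1 list holds 1 or both duplicates was not stated, so the PRRX1 −log10 p values are given as listed. Strain and fibroblast type cannot be told apart between MMTV-CAF and the other types, and KI and SG MEF share 1 WT MEF list.

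Matricellular proteins are secreted into the extracellular matrix, where they act on cell adhesion and growth factor signals more than on the strength of the matrix. They are low in most resting adult tissues and are made by activated fibroblasts in healing wounds and in tumour stroma. Fibronectin and hyaluronan, the polymer made by hyaluronan synthases, form the provisional matrix through which fibroblasts move before collagen is laid down.

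The targeted gene itself, Prrx1, kept an H3K4me3 region of 4558 to 15484 bp over its start in every list, and neither mark can show whether a guide edit or an insert removed the protein. Peak lists differed in size and strength. They held 29325 to 61603 H3K27ac summits, 13125 to 29166 H3K4me3 regions and 3048 to 8000 PRRX1 summits, and the KI MEF lists were the shortest for both histone marks. Of 9 fibroblast markers, 6 to 8 had H3K4me3 within 1 kb of a start and 7 to 9 had H3K27ac in every culture, with Lum lacking H3K4me3 throughout and Dcn lacking both marks in KI MEF and WT wound-healing fibroblasts. Thy1 lacked H3K4me3 in KI MEF, SG MMTV-CAF and SG wound-healing fibroblasts and in no WT list. Summed H3K27ac of these 9 markers, in the units of share defined next, was 934 in WT, 935 in KI and 797 in SG MEF, 1783 in WT and 1328 in SG MMTV-CAF, and 1429 in WT and 644 in SG wound-healing fibroblasts. Of 6 epithelial markers, 0 to 3 had H3K4me3 and 1 to 3 H3K27ac, with a summed share of 19.3 to 175. Of 4 endothelial markers, 0 or 1 had H3K4me3 and 1 to 3 H3K27ac (58.6 to 266). Of 4 immune markers, 0 or 1 had H3K4me3 and 1 or 2 H3K27ac (130 to 198), which were Cd68 in every list and Itgam in both MMTV-CAF lists and SG wound-healing fibroblasts, and Ptprc and Cd3e had neither mark. Of 3 keratinocyte and melanocyte markers, 0 had H3K4me3 and 1 H3K27ac (27.6 to 39.9). The part of other cell types in the results was not tested. H3K27ac in a gene window is given below as the sum of the summits' −log10 p, or as that sum per 1000000 of the list's total, called the share. A difference between 2 lists was called where the share differed by 2-fold or more in a gene with at least 3 summits in both lists together, or where the H3K4me3 region over a transcription start differed in width by 1.5-fold or more.

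H3K27ac varied widely among the 9 genes. Their median share lay between percentile 64.8 of protein-coding genes in SG MEF and percentile 92.8 in SG MMTV-CAF. The lowest member lay between percentile 0 and 45.6, and 1 to 4 members a list, among Postn, Tnc, Thbs2 and Spp1, lay below percentile 50. The windows held 28 to 61 summits in all, and 8 or 9 of the 9 genes had a summit, against 52.3% to 64.3% of all genes. When summits of the 7 lists were joined within 500 bp, 124 sites resulted. Of these, 8 were present in all 7 lists, 60 in 1 list, 39 in WT lists alone and 29 in deleted lists alone, which is 6.45%, 48.4%, 31.5% and 23.4%. Over the 100984 sites of the whole genome the shares were 10.6%, 42.1%, 16.1% and 31.9%. The 39 sites in WT lists alone were uneven between genes, with 12 at Sparc, 11 at Thbs2 and 6 at Has1. Postn and Tnc had 4 each, Thbs1 and Spp1 1 each, and Fn1 and Has2 0. Sites common to all lists lay at Sparc, Thbs1, Thbs2, Has1 and Has2.

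H3K4me3 at the starts differed between the genes. A region lay over a transcription start of 7 members in WT MEF, 8 in WT MMTV-CAF and 6 in WT wound-healing fibroblasts, where 53.1%, 52.4% and 54.7% of all genes had one. Regions wider than 4 kb were found at 4, 6 and 3 members in the same lists, against 5.02%, 15.1% and 4.83% of all genes. Over the 7 lists, a region wider than 4 kb was found at Thbs1 in 6, at Sparc and Fn1 in 5 each, at Has2 in 4, at Thbs2 in 3, at Postn and Has1 in 1 each and at Spp1 in none. Has1 had a region over its start in MMTV-CAF alone, and Tnc had none.

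**Figure D1:**
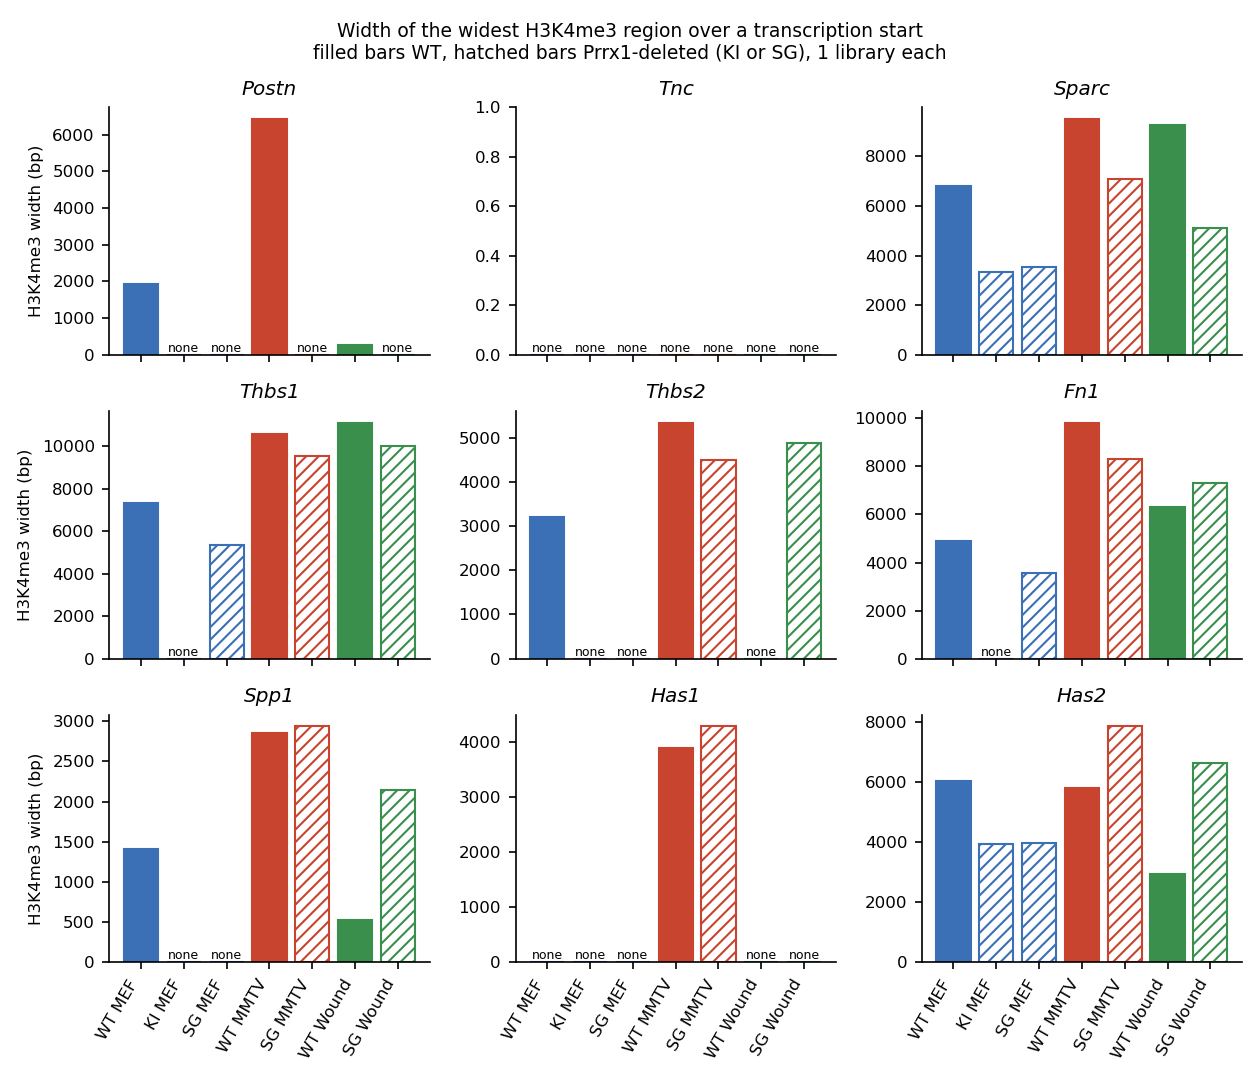
Width in bp (vertical axis, starting at 0, own scale per gene) of the widest H3K4me3 region over a transcription start, for the 9 genes in the 7 libraries. Filled bars are WT and hatched bars are Prrx1-deleted, 1 library each, and "none" marks a library with no such region. Postn has bars in WT libraries alone, and Sparc is narrower in each deleted library (3355 to 7067 bp) than in its WT (6805 to 9507 bp).

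Postn encodes periostin, a secreted protein that binds collagen and integrins and is made by activated fibroblasts. The gene (ENSMUSG00000027750.9) lies on chromosome 3 from 54165031 to 54194961 on the plus strand. Its H3K4me3 region over the start was 1929 bp wide in WT MEF, 6430 bp in WT MMTV-CAF and 254 bp in WT wound-healing fibroblasts, with fold enrichments over input of 2.88, 4.90 and 3.45. The WT wound list held a second region, 666 bp wide, from 895 to 1560 bp. No deleted list had a region over the start. In SG MMTV-CAF and SG wound-healing fibroblasts, a region of 875 and 1026 bp ended at -1965 and -1695 bp from the start, and in both deleted MEF lists no region was nearer than 198524 bp. A region over a start in all 3 WT lists and in none of the 4 deleted lists was found for 3 of 10933 genes (0.0274%). The others were Crispld2 and Insrr, with WT widths of 241 to 956 bp, and this pattern was counted after the Postn values had been seen. The WT MEF and WT wound regions were weak (−log10 p of 4.21 and 5.35, against 17.7 in WT MMTV-CAF), so with a minimum of 10 the pattern rests on MMTV-CAF.

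Acetylation at Postn was sparse and moved in position. WT MEF had 2 summits with a share of 27.4, KI MEF 1 with 29.5, and SG MEF 1 with 7.68. WT MMTV-CAF had 3 with 50.2 and SG MMTV-CAF 1 with 5.11. WT and SG wound-healing fibroblasts had 1 each, with 15.9 and 21.7. The share was thus lower in SG than in WT by 3.56-fold in MEF and 9.83-fold in MMTV-CAF, while in KI MEF and SG wound-healing fibroblasts it was slightly above WT, on 1 or 2 summits a list. In 6 lists a summit stood between -2242 and -2197 bp. WT MMTV-CAF lacked it and instead had summits at 109 bp, its strongest with a −log10 p of 37.6, and at 823 bp, inside the wide H3K4me3 region. SG MMTV-CAF had the upstream summit and neither of the promoter summits.

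PRRX1 summits lay inside an intron of Postn in WT MEF and WT wound-healing fibroblasts. They stood at 16877 and 16870 bp from the gene start, 426 and 419 bp beyond a further annotated start within the gene and 7 bp apart, with −log10 p of 20.4 and 12.6, which ranked at percentiles 91.5 and 90.9 of their lists. No H3K27ac summit of any list lay nearer than 16047 bp. A further WT wound summit at 26024 bp was near the lowest value listed (−log10 p of 3.25), and the WT MMTV-CAF list had no PRRX1 summit at Postn. The 201 bases around the MEF summit, chr3:54181808-54182008 of mm9 on the plus strand, are shown because this is the strongest PRRX1 summit of the 9 genes. The capitals mark TAATTA, the word of homeodomain proteins, which matched 6 times in overlap in a run of TAAT repeats.
Postn intron site: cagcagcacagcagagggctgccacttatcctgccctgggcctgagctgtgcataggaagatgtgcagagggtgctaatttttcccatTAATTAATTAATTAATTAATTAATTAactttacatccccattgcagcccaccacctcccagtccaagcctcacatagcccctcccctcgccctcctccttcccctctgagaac
TAATTA, searched within 100 bp of the summit on both strands (the word reads the same on each), was present at 69.1% of all WT MEF summits and 41.9% of all WT wound summits. Here and below a match is a description of the letters.

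**Figure D2:**
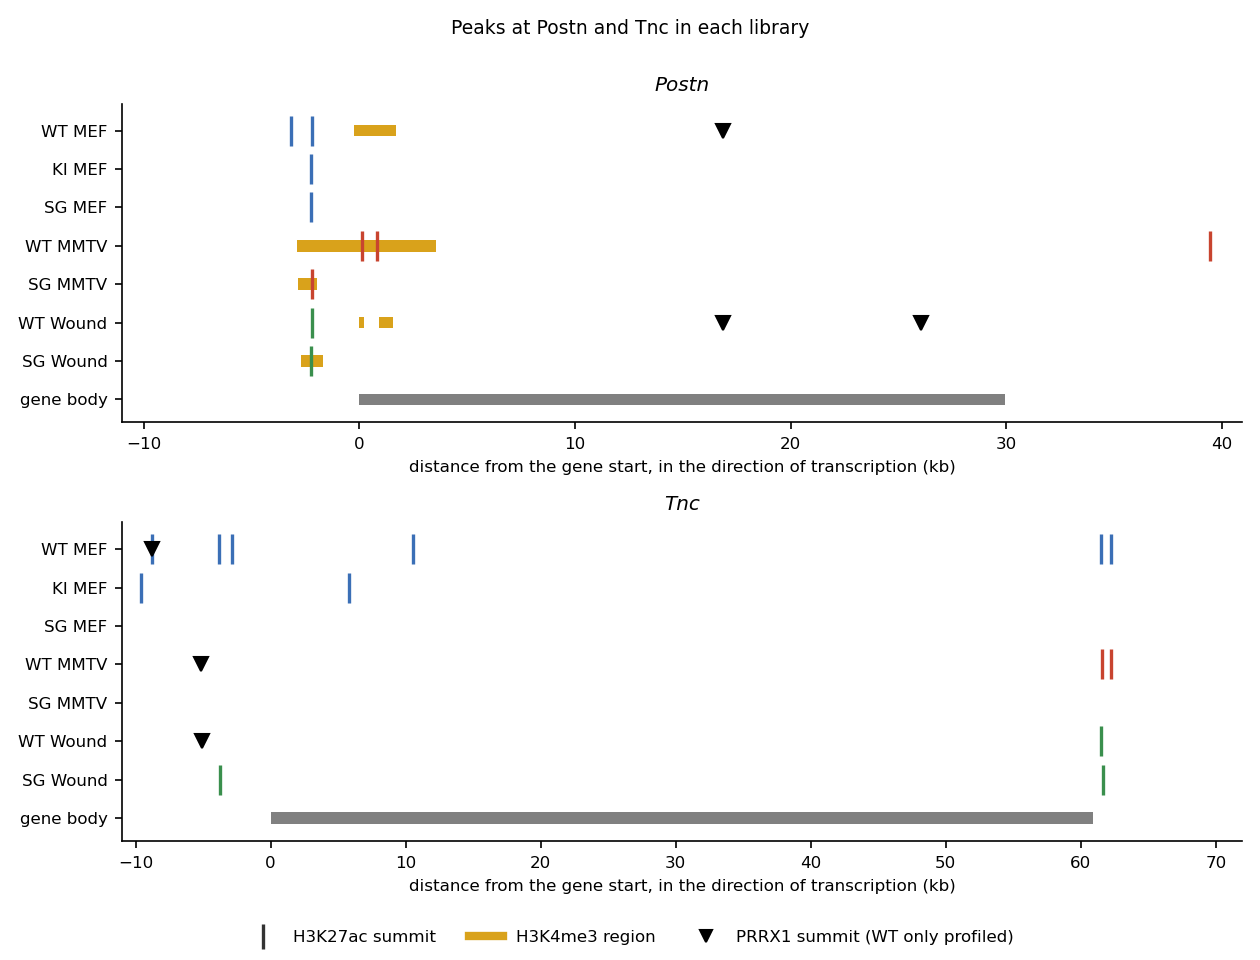
Positions of H3K27ac summits (vertical ticks), H3K4me3 regions (yellow bars) and PRRX1 summits (black triangles, WT alone profiled) at Postn and Tnc in each library, by distance in kb from the gene start in the direction of transcription. At Postn, yellow bars cross the start in the 3 WT libraries, and the acetylation tick just upstream of the start is missing in WT MMTV-CAF. Tnc has no yellow bar and has no tick in SG MEF and SG MMTV.

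Tnc encodes tenascin C, a large hexameric glycoprotein that weakens adhesion of cells to fibronectin and marks wound edges and tumour stroma. The gene (ENSMUSG00000028364.8) lies on chromosome 4 from 63620819 to 63681760 on the minus strand. No list held an H3K4me3 region over its start, and the nearest region lay 22418 to 25554 bp away. Among the 12985 genes with H3K27ac in 5 or more lists, 12.2% likewise had no H3K4me3 over a start in any list. WT MEF had 6 H3K27ac summits with a share of 62.1, KI MEF 2 with 42.4, and SG MEF none. WT MMTV-CAF had 2 with 12.1 and SG MMTV-CAF none, while WT and SG wound-healing fibroblasts had 1 with 8.94 and 2 with 29.2. The summit nearest to the start stood at -2856 bp, in WT MEF. In WT MEF, WT MMTV-CAF and WT wound-healing fibroblasts the strongest stood just beyond the 3′ end, at 61489 to 61577 bp. The share in SG against WT was thus listed at 0 in MEF and MMTV-CAF and was 3.27-fold higher in wound-healing fibroblasts, where each list held few summits.

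Tnc had a PRRX1 summit in all 3 types, as did 2.97% of all genes. The MEF summit stood at -8814 bp (−log10 p of 9.71), and a WT MEF H3K27ac summit lay 25 bp from it. KI MEF had its nearest acetylation 805 bp away, and SG MEF had none nearer than 16061 bp. The MMTV-CAF and wound summits stood at -5146 and -5099 bp, 47 bp apart, with −log10 p of 6.31 and 6.62. No H3K27ac summit of either WT list lay nearer than 19751 bp. Both sites are shown, chr4:63690474-63690674 and chr4:63686759-63686959 of mm9, on the minus strand along the gene. The capitals mark TAATTA and CAGACA, a Smad-type word written TGTCTG on the other strand.
Tnc MEF site: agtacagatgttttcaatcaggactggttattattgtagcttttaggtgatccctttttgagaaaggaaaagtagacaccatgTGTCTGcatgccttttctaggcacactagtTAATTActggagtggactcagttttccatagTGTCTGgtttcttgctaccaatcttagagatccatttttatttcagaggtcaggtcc
Tnc wound site: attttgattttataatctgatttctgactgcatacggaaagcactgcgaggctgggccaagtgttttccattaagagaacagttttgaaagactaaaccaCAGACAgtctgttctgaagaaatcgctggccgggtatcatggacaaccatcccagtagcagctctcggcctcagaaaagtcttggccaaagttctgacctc
The MEF site held 1 TAATTA centred 15 bp from the summit and 2 CAGACA words. The wound site held no TAATTA and 1 CAGACA word 2 bp from the summit. The latter word was present at 17.9% of all WT MEF summits, 17.6% of all WT MMTV-CAF summits and 15.3% of all WT wound summits.

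Sparc encodes osteonectin, a collagen-binding protein that takes part in collagen assembly. The gene (ENSMUSG00000018593.6) lies on chromosome 11 from 55208002 to 55233582 on the minus strand. Its H3K4me3 region was 6805 bp wide in WT MEF, 3355 bp in KI MEF and 3527 bp in SG MEF. It was 9507 bp in WT and 7067 bp in SG MMTV-CAF, and 9265 bp in WT and 5112 bp in SG wound-healing fibroblasts. The region was narrower than in WT by 2.03-fold in KI MEF, 1.93-fold in SG MEF, 1.35-fold in SG MMTV-CAF and 1.81-fold in SG wound-healing fibroblasts. SG MEF held a further region of 307 bp, from 4864 to 5170 bp. SG wound-healing fibroblasts held one of 368 bp, from 6049 to 6416 bp. Both lie within the span of the WT region of their type. Of 8775 genes with a region over a start in all 7 lists, 10.5% were narrower in every deleted list, and both MEF comparisons use 1 WT list. Fold enrichments did not follow the widths, at 5.18, 6.15 and 6.32 in WT, KI and SG MEF, 9.23 and 9.01 in WT and SG MMTV-CAF, and 6.51 and 7.37 in WT and SG wound-healing fibroblasts.

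Sparc also had the highest H3K27ac share of the 9 genes in each WT list, with windows of unequal length. Per kb of window, Sparc was highest in WT MEF (7.25) and WT wound-healing fibroblasts (13.1). In WT MMTV-CAF it stood at 4.81 per kb, below Has1 at 6.17. The Sparc share was 330 in WT MEF, 286 in KI MEF and 216 in SG MEF. It was 219 in WT and 164 in SG MMTV-CAF, and 597 in WT and 249 in SG wound-healing fibroblasts, a 2.40-fold lower value. WT wound-healing fibroblasts had 18 summits and SG cells 5, and 5 of the 18 had a summit within 500 bp in the SG list. Downstream of the start WT had 14 summits, spread to 29866 bp, and SG had 3. A pair of upstream sites, from -8689 to -8573 bp and from -7994 to -7866 bp, was present in all 7 lists. The lone PRRX1 summit at Sparc stood at 5468 bp in WT wound-healing fibroblasts and was weak (−log10 p of 4.50), with none of the 4 words searched within 100 bp.

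Thbs1 and Thbs2 encode thrombospondin 1 and thrombospondin 2, trimeric glycoproteins that limit the growth of blood vessels, and thrombospondin 1 can activate latent TGF-β. Thbs1 (ENSMUSG00000040152.8) lies on chromosome 2 from 117937612 to 117952869 on the plus strand. Its H3K4me3 region was 7351 bp wide in WT MEF and 5337 bp in SG MEF. In KI MEF the region, 5171 bp wide, began 123 bp beyond the start and so did not overlap it. The widths were 10596 and 9540 bp in WT and SG MMTV-CAF, and 11114 and 10034 bp in WT and SG wound-healing fibroblasts. All of the regions over the start ranked at or above percentile 98.2 of width in their lists, and none of the SG widths differed from WT by 1.5-fold. The H3K27ac share was 190 in WT MEF, 319 in KI MEF and 64.0 in SG MEF, where 2 of the 5 WT summits were kept. It was 119 and 153 in WT and SG MMTV-CAF, and 267 and 151 in WT and SG wound-healing fibroblasts. The SG MEF value was past the fold (2.97-fold lower). The KI MEF value was within it, above WT as a share and below WT as an unscaled sum (129 against 220). A long noncoding gene, Gm13986, starts at -674 bp, and the signal of the neighbouring promoters cannot be told apart.

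Of the PRRX1 summits of the 9 genes, 4 of the 14 in WT MMTV-CAF and 2 of the 9 in WT wound-healing fibroblasts belonged to Thbs1. The MMTV-CAF summits at -1517 and -1160 bp lay within 181 bp of a WT MMTV-CAF acetylation summit, and H3K27ac was within 500 bp of the former in all 7 lists. The wound summits, at -667 and 3638 bp, had −log10 p of 5.39 each and no WT wound acetylation within 500 bp. TAATTA was found at the MMTV-CAF summit at -7611 bp alone, and TGANTCA, the AP-1 word, at the summit at -1517 bp alone.

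Thbs2 (ENSMUSG00000023885.7) lies on chromosome 17 from 14802507 to 14831269 on the minus strand. Its H3K4me3 region was 3213 bp wide in WT MEF. SG MEF had no region within 248300 bp, and KI MEF had a 331 bp region 516 bp from the start. WT and SG MMTV-CAF had regions of 5344 and 4507 bp. SG wound-healing fibroblasts had a region of 4887 bp over the start, and WT cells had a region of 4439 bp that began 38 bp beyond it. H3K27ac had the same low values in deleted MEF. The share was 113 in WT MEF with 9 summits, 29.8 in KI MEF with 1 and 37.0 in SG MEF with 4, which was 3.79-fold and 3.05-fold lower. It was 216 and 194 in WT and SG MMTV-CAF, and 386 and 202 in WT and SG wound-healing fibroblasts. The 5 WT MEF summits from -529 to 2038 bp around the start had no counterpart in either deleted MEF list, whereas the site from 33978 to 34620 bp, beyond the 3′ end, was present in all 7 lists.

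PRRX1 summits stood at the Thbs2 promoter in WT MMTV-CAF and WT wound-healing fibroblasts, at -193 and -234 bp, 41 bp apart, with −log10 p of 4.59 and 6.32. Acetylation lay within 500 bp in 5 lists, all but KI MEF and SG MEF. A further MMTV-CAF summit at 32153 bp, beyond the 3′ end, held 1 TAATTA 1 bp from its centre and had acetylation within 500 bp in 6 lists. For the shared promoter summit, the wound site, chr17:14831403-14831603 of mm9 on the minus strand, is shown with its CAGACA word, here TGTCTG, in capitals.
Thbs2 promoter site: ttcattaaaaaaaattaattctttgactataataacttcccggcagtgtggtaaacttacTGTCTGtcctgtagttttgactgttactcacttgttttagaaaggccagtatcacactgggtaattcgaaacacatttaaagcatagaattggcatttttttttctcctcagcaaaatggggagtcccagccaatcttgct
In the window from 250 bp before to 50 bp after each gene start, CAGACA was present at 4199 of 22089 promoters and at Sparc, Thbs2, Spp1 and Has1 among the 9. TAATTA was present at 4.83% of promoters, TGANTCA at 6.93% and GGAATG, the word of TEAD factors, at 13.5%, and none of these at any of the 9.

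Spp1 encodes osteopontin, a secreted phosphoprotein that binds integrins and CD44. The gene (ENSMUSG00000029304.8) lies on chromosome 5 from 104864137 to 104870069 on the plus strand. Its H3K4me3 region was 1413 bp wide in WT MEF and absent from KI and SG MEF. It was 2854 and 2933 bp in WT and SG MMTV-CAF, and 527 and 2146 bp in WT and SG wound-healing fibroblasts, a 4.07-fold difference. The WT wound-healing list held a second region at the gene, 389 bp wide, from 1035 to 1423 bp, within the span of the single SG region, which ran from -620 to 1525 bp. The H3K27ac share was 22.5 in WT MEF, listed at 0 in KI MEF and 12.7 in SG MEF. It was 13.4 with 1 summit in WT MMTV-CAF and 69.9 with 5 summits in SG MMTV-CAF, 5.22-fold higher. WT wound-healing fibroblasts were listed at 0 and SG cells at 5.59 with 1 summit. The PRRX1 summit of WT wound-healing fibroblasts at 1144 bp (−log10 p of 5.41) had an SG wound acetylation summit 24 bp away and no WT wound summit nearer than 23642 bp.

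Fn1 encodes fibronectin, the main protein of the provisional matrix. The gene (ENSMUSG00000026193.8) lies on chromosome 1 from 71632094 to 71699774 on the minus strand, and the gene Apol7d starts at -135 bp, so that signal of the neighbouring promoters cannot be told apart. Its H3K4me3 region was 4901 bp wide in WT MEF and 3583 bp in SG MEF, and in KI MEF a region of 3882 bp lay 77 bp from the nearest annotated start. The widths were 9820 and 8320 bp in WT and SG MMTV-CAF, and 6306 and 7295 bp in WT and SG wound-healing fibroblasts, so no SG list differed from its WT by 1.5-fold. The H3K27ac share was 106 in WT MEF, 239 in KI MEF and 75.7 in SG MEF, 97.3 and 79.0 in WT and SG MMTV-CAF, and 135 and 108 in WT and SG wound-healing fibroblasts. The KI share was 2.26-fold higher than WT, but the sum itself was lower in KI (96.7 against 122). The lists held 2 to 5 summits over a gene body of 67.7 kb, and in all but SG wound-healing fibroblasts these lay between -669 and 5192 bp. PRRX1 summits stood at 1743 bp in WT MMTV-CAF (−log10 p of 4.58), under H3K4me3 in all 7 lists, and at 42367 bp in WT wound-healing fibroblasts (9.36), inside an intron with 5 TAATTA words and no acetylation nearer than 21015 bp in any list.

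Has1 and Has2 encode hyaluronan synthases of the cell membrane. Has1 (ENSMUSG00000003665.6) lies on chromosome 17 from 17980292 to 17992152 on the minus strand. An H3K4me3 region covered its start in WT and SG MMTV-CAF alone, with widths of 3877 and 4274 bp. In SG MEF a 265 bp region lay at -1905 bp, and in WT MEF and both wound lists the nearest region was 15556 to 16179 bp away. The H3K27ac share was 171 in WT MEF, 83.7 in KI MEF and 161 in SG MEF, 197 and 175 in WT and SG MMTV-CAF, and 80.3 and 147 in WT and SG wound-healing fibroblasts. The strongest summit stood at 17487 to 17524 bp in 6 lists and at 16423 bp in SG MMTV-CAF. The neighbouring gene Ncrna00085 starts at 17494 bp, so much of the acetylation counted here lies at that gene's promoter. At the start of Has1 itself, a summit within 500 bp was seen in SG MMTV-CAF alone, at 38 bp. The stronger of the 2 PRRX1 summits of WT MMTV-CAF stood at 14234 bp, beyond the 3′ end (−log10 p of 14.7, percentile 91.8 of its list), chr17:17977818-17978018 of mm9 on the minus strand, and is shown with GGAATG, read here as CATTCC, in capitals. Acetylation lay within 500 bp in 4 lists, and the WT MMTV-CAF summit was 611 bp away.
Has1 downstream site: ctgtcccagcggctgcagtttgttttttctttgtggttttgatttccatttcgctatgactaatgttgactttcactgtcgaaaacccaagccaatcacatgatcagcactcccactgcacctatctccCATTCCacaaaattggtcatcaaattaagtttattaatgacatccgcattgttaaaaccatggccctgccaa
GGAATG was present at 15.2% of all WT MMTV-CAF summits. The site held no TAATTA, which 35.5% of them did.

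Has2 (ENSMUSG00000022367.7) lies on chromosome 15 from 56497182 to 56526094 on the minus strand. Its H3K4me3 region was 6038 bp wide in WT MEF, 3932 bp in KI MEF and 3968 bp in SG MEF. It was 5827 and 7862 bp in WT and SG MMTV-CAF, and 2937 and 6641 bp in WT and SG wound-healing fibroblasts. The region was thus narrower in both deleted MEF lists, by 1.54-fold and 1.52-fold, neither past 1.5-fold once widths were divided by the list median, and 2.26-fold wider in SG wound-healing fibroblasts. The WT wound list held a further region of 326 bp, from -1374 to -1049 bp, beside the one from -615 to 2321 bp, and both lie within the single SG region from -1809 to 4831 bp. The H3K27ac share was 108 in WT MEF, 180 in KI MEF and 104 in SG MEF, 156 and 157 in WT and SG MMTV-CAF, and 134 and 227 in WT and SG wound-healing fibroblasts. No pair passed 2-fold. SG wound-healing fibroblasts had 10 summits where WT had 4. Sites at 1382 to 1614 bp and 8402 to 8585 bp, both in introns, were present in all 7 lists. The noncoding gene Has2as starts at 585 bp, and its signal cannot be told apart from that of Has2.

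The strongest PRRX1 summit of WT MMTV-CAF at these genes stood at 8979 bp in a Has2 intron, with a −log10 p of 18.8 (percentile 95.4 of its list). Acetylation lay 475 bp away in WT and 577 bp away in SG MMTV-CAF. The site, chr15:56517015-56517215 of mm9 on the minus strand, is shown because it held both TAATTA, 17 bp from the summit, and an AP-1 word, TGACTCA, centred 91 bp before it, in capitals.
Has2 intron site: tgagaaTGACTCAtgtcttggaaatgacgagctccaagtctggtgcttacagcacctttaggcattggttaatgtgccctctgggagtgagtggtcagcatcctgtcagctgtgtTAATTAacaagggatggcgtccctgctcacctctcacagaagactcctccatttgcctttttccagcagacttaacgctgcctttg
TGANTCA was present at 18.2% of all WT MMTV-CAF summits. Further MMTV-CAF summits stood at 1554 and -290 bp, under H3K4me3 in all 7 lists. The WT MEF summit at 20914 bp (−log10 p of 6.72) held 3 overlapping TAATTA words and had no WT MEF acetylation nearer than 1694 bp.

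Across the 9 genes, WT MEF had 3 PRRX1 summits at 3 genes, WT MMTV-CAF 14 at 6 genes and WT wound-healing fibroblasts 9 at 7 genes. Of all genes, 7.04%, 22.1% and 16.8% had a summit in these lists. Per 100 kb of window, the 9 genes had 0.660, 3.08 and 1.98 summits against 0.134, 0.518 and 0.364 over all gene windows. Each of the 9 had a summit in some type, as did 31.0% of all genes. An H3K27ac summit of the same cells lay within 500 bp of 1 of 3, 8 of 14 and 1 of 9 summits. For MMTV-CAF this was 57.1% (Wilson 95% interval 32.6 to 78.6, counting error alone) against 45.4% of all summits, and for wound-healing fibroblasts 11.1% (1.99 to 43.5) against 33.2%. TAATTA was found at 3 of 3 summits in MEF, 3 of 14 in MMTV-CAF and 3 of 9 in wound-healing fibroblasts, against 69.1%, 35.5% and 41.9% of all summits. Of the summits, 2 of 3, 12 of 14 and 8 of 9 had a −log10 p below 10, as did 63.5%, 79.3% and 84.6% of all summits in these lists.

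**Figure D3:**
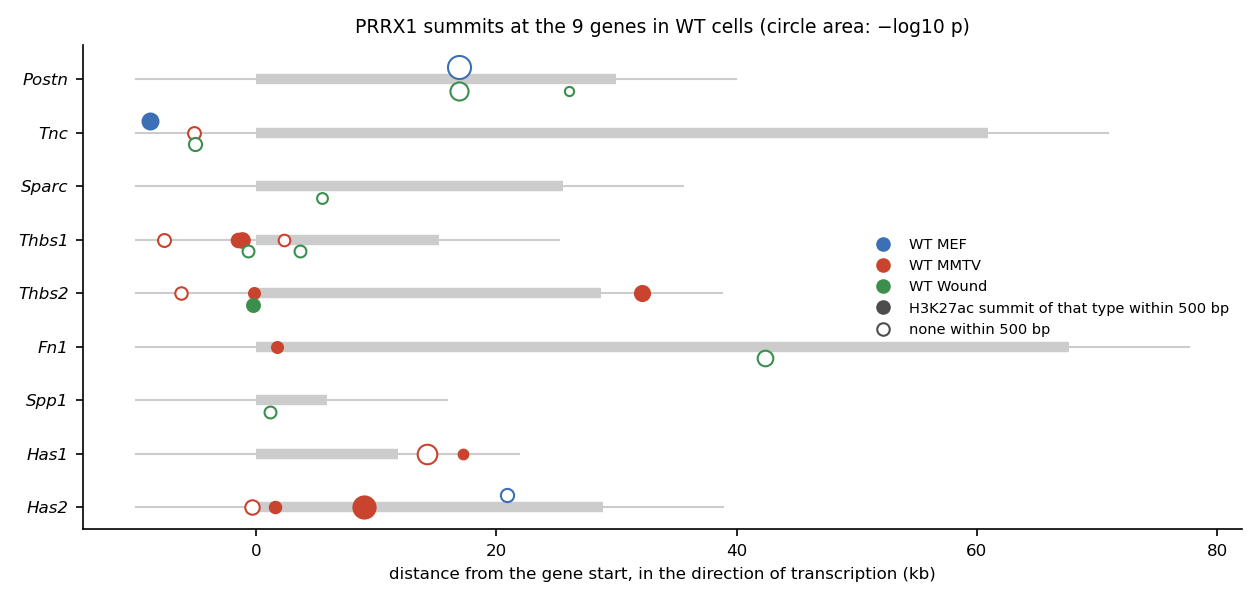
PRRX1 summits at the 9 genes in WT cells, by distance in kb from the gene start (thick grey bars are gene bodies, thin lines the 10 kb on each side). Circle area is proportional to −log10 p, colour gives the fibroblast type, and a filled circle has an H3K27ac summit of the same cells within 500 bp. The large open circles at Postn (20.4 in MEF) lack acetylation, and 8 of the 14 MMTV-CAF circles are filled.

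Prrx1-deleted and WT lists were then compared over the group. In KI MEF, H3K27ac was lower at 3 and higher at 1 of 9 tested members, against 20.5% lower and 8.03% higher of all genes tested. The lower members were Thbs2, Spp1 and Has1, and the higher was Fn1. In SG MEF, 4 of 9 were lower (Postn, Tnc, Thbs1 and Thbs2) and 0 higher, against 4.26% and 6.37%. In SG MMTV-CAF, Postn was lower and Spp1 higher of 8 tested, against 6.06% and 8.31%. In SG wound-healing fibroblasts, Sparc was lower and Tnc higher of 7 tested, against 5.70% and 7.24%. The median log2 ratio of tested members, counting a share of 0 as the lowest value, was -0.21, -0.82, -0.16 and -0.32 in this order, against -0.21, 0.12, -0.04 and -0.07 over all tested genes. In KI MEF the members' median thus equalled that of all genes, and the unscaled sums of all 9 were below WT. The KI list's total was 403795 against 1155011. Of these 12 calls, 3 held under all 5 other settings tried (flanks of 0 and 50 kb, a minimum −log10 p of 10, lists of equal size and unscaled sums), which were Thbs2 in KI MEF and Thbs1 and Thbs2 in SG MEF. In SG MEF, Postn and Tnc were not called without the flank or with lists of equal size, which left 2 members. With the minimum, Postn was not called there either, which left 3. Has1 in KI MEF, whose window holds the promoter of Ncrna00085, was not called with either other flank or with the minimum. Spp1 in KI MEF was called, among the other settings, with unscaled sums alone. Fn1 in KI MEF was not called with 50 kb flanks, with lists of equal size or unscaled. Postn in SG MMTV-CAF was not called without the flank or with lists of equal size, and Spp1 there was not called with 50 kb flanks. Sparc in SG wound-healing fibroblasts was not called with 50 kb flanks or unscaled, and Tnc there was called, among the other settings, with unscaled sums alone. A gene left with fewer than 3 summits in both lists together counts as not called. The balance of directions moved as well. The shares of all genes called under the other settings are not given, so the counts that follow are no result about the members. Unscaled sums also carry the difference between list totals. KI MEF had 6 lower and 0 higher with unscaled sums. SG wound-healing fibroblasts had 3 lower (Sparc, Thbs2 and Fn1) and 0 higher without the flank, and 0 lower and 3 higher (Tnc, Has1 and Has2) with unscaled sums. SG MMTV-CAF had 0 lower and 2 higher (Thbs1 and Spp1) without the flank.

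**Figure D4:**
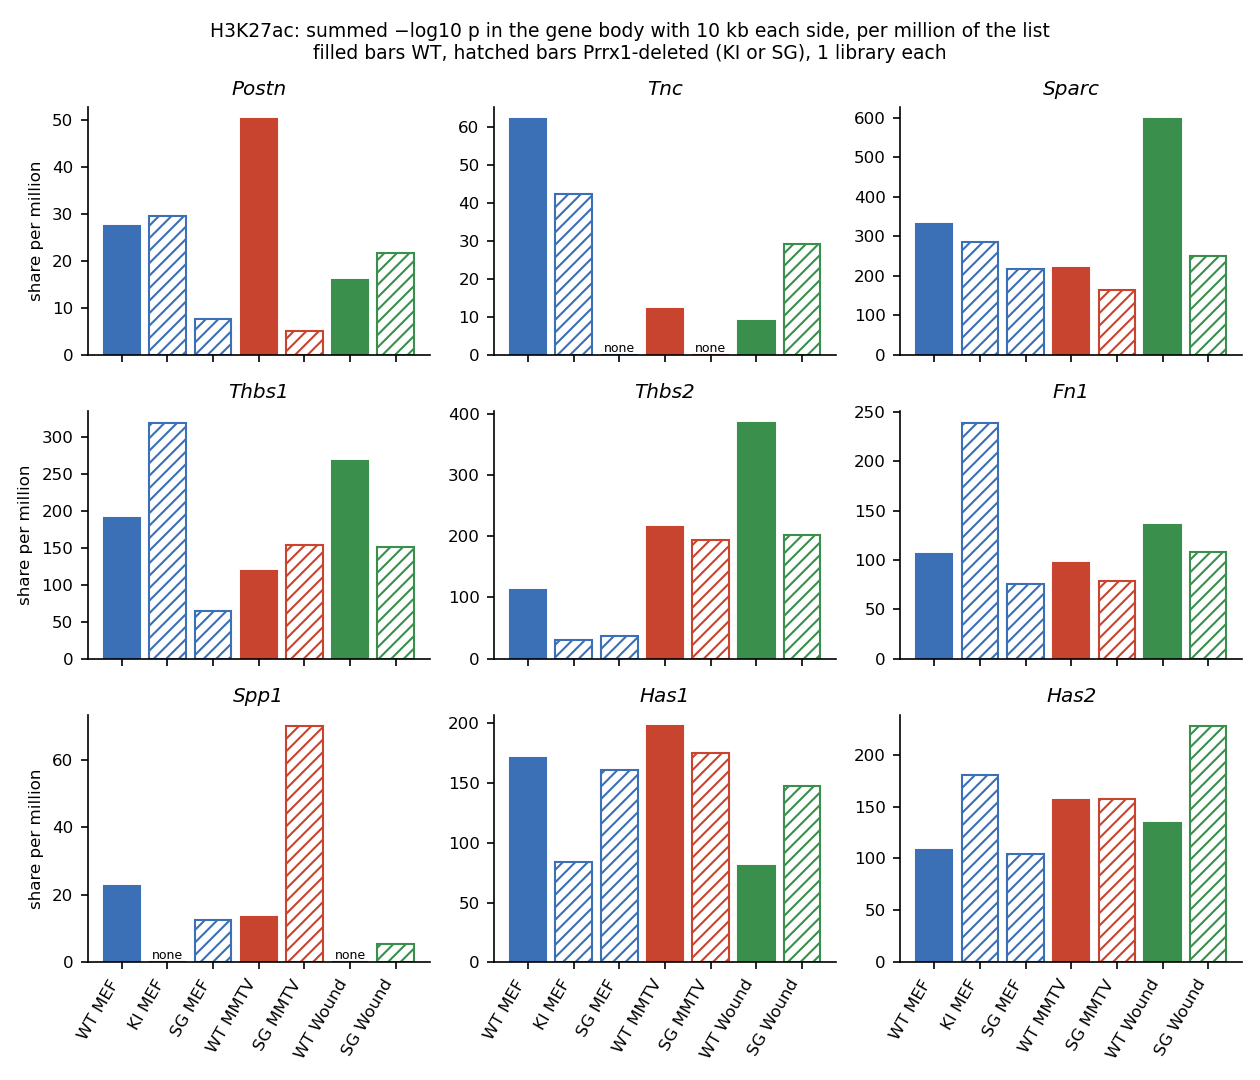
H3K27ac in the gene body with 10 kb on each side, as the sum of summit −log10 p per 1000000 of the list's total (vertical axis, starting at 0, own scale per gene), for the 9 genes in the 7 libraries. Filled bars are WT and hatched bars Prrx1-deleted, 1 library each. Thbs2 is at 29.8 and 37.0 in the deleted MEF libraries and at 113 in WT MEF, and Spp1 is highest, at 69.9, in SG MMTV.

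H3K4me3 widths could be compared at fewer members. In KI MEF, 2 of 2 members were narrower (Sparc and Has2), against 25.1% narrower and 0.506% wider of all genes tested. In SG MEF the same genes were narrower among 4, against 5.04% and 0.595%. In SG MMTV-CAF 0 of 7 passed the fold in either direction, against 5.89% narrower and 4.99% wider. In SG wound-healing fibroblasts, Sparc was narrower, and Spp1 and Has2 wider, of 5, against 1.73% and 11.6%. The median log2 ratio of members was -0.82, -0.53, -0.15 and 0.21, and that of all genes tested was -0.33, -0.09, -0.05 and 0.18, so widths as a whole were smaller in KI MEF and larger in SG wound-healing fibroblasts. Regions over a start were lost at 5 of 7 members in KI MEF, 3 of 7 in SG MEF (Postn, Thbs2 and Spp1), 1 of 8 in SG MMTV-CAF and 1 of 6 in SG wound-healing fibroblasts (Postn in both). Of all genes with a WT region, 22.6%, 4.05%, 2.67% and 2.42% lost it. Thbs2 in SG wound-healing fibroblasts was the 1 member with a region in the deleted list alone, as were 0.797%, 0.836%, 3.62% and 3.37% of genes with a region in the deleted list. With any region within 1 kb of a start counted, KI MEF lost 2 of 7, Postn and Spp1, against 10.1% of all genes, SG MEF 3 of 7 against 3.45%, SG MMTV-CAF 1 of 8 against 2.70% and SG wound-healing fibroblasts 1 of 7 against 2.10%.

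**Figure D5:**
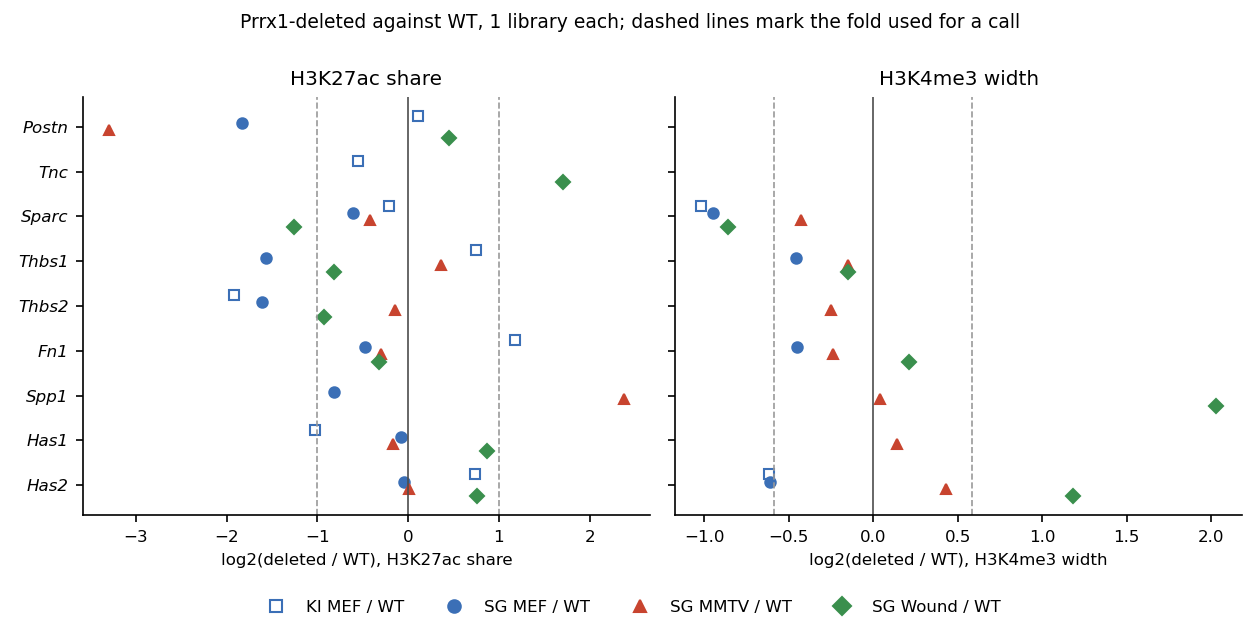
Log2 ratio of deleted to WT for the H3K27ac share (left) and the H3K4me3 width over a start (right), by gene and comparison, each point being 1 library against 1 library. Dashed lines mark the folds used for a call, and members with no signal in a list have no point. Sparc lies left of 0 in each comparison of both panels (KI and SG MEF share their WT list, and the KI MEF H3K27ac ratio turns sign when the gene body is read without its flank), and Has2 width is at -0.62 and -0.61 in MEF and at 1.18 in wound-healing fibroblasts.

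The share of WT summits with a counterpart in the deleted list was set beside that of all summits, with no test of the difference. A summit within 500 bp was present in KI MEF for 15 of 52 WT MEF summits (28.8%, Wilson 95% interval 18.3 to 42.3) against 44.3% of all WT summits, and in SG MEF for 25 of 52 (48.1%, 35.1 to 61.3) against 68.2%. SG MMTV-CAF kept 32 of 60 (53.3%, 40.9 to 65.4, an interval that holds the share of all summits) against 63.9%, and SG wound-healing fibroblasts 28 of 58 (48.3%, 35.9 to 60.8) against 67.7%. Most of these 58 wound summits lay at Sparc (5 of 18 kept) and Thbs2 (9 of 18 kept). Of the rest, Thbs1 kept 6 of 9, Has2 3 of 4, Has1 2 of 3, Fn1 1 of 4, and Postn and Tnc 1 of 1 each. The intervals cover counting error alone, and summits of 1 library are no replicates. With all lists cut to their 29325 strongest summits, the members' shares were 46.4% in KI MEF, 57.1% in SG MEF, 58.1% in SG MMTV-CAF and 40.8% in SG wound-healing fibroblasts, against 58.4%, 72.3%, 64.4% and 64.6% of all summits. Between WT lists, members lay below all summits in some directions and above in others. WT MEF summits were present in WT MMTV-CAF for 57.7% against 63.3% and in WT wound-healing fibroblasts for 55.8% against 51.8%. WT MMTV-CAF summits were present in WT wound-healing fibroblasts for 48.3% against 41.3% and in WT MEF for 51.7% against 52.1%. WT wound summits were present for 46.6% in each other type, against 69.6% in WT MEF and 67.7% in WT MMTV-CAF.

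Between WT types, the widest region over a start was in MMTV-CAF for Postn, Sparc, Thbs2, Fn1, Spp1 and Has1, in wound-healing fibroblasts for Thbs1 and in MEF for Has2. Compared with WT MEF, widths in WT MMTV-CAF were wider at 4 of 7 members (Postn, Thbs2, Fn1 and Spp1) and narrower at 0, against 29.1% and 2.14% of all genes tested, and the median over all genes was itself 0.40 higher on the log2 scale. WT wound-healing fibroblasts were narrower than WT MEF at 3 of 6 (Postn, Spp1 and Has2) and wider at Thbs1, against 6.00% and 4.12%. Compared with WT MMTV-CAF, WT wound-healing fibroblasts were narrower at 4 of 6 (Postn, Fn1, Spp1 and Has2) and wider at 0, against 36.6% and 2.23%. For H3K27ac, WT MMTV-CAF was lower than WT MEF at Tnc alone of 9 and higher at 0, against 8.26% and 9.59%. WT wound-healing fibroblasts were lower than WT MEF at Tnc, Spp1 and Has1 and higher at Thbs2 of 9, against 9.16% and 9.06%. They were lower than WT MMTV-CAF at Postn and Has1 and higher at Sparc and Thbs1 of 8, against 9.90% and 8.84%. Each of these 9 H3K27ac calls between WT types was lost under at least 1 of the 5 other settings. The counts under those settings stand without the share of all genes, and unscaled sums carry the difference between list totals. WT MMTV-CAF against WT MEF had 1 lower (Tnc) and 2 higher (Postn and Thbs2) with unscaled sums. WT wound-healing fibroblasts against WT MEF had 0 lower and 2 higher (Sparc and Thbs2) without the flank, and 4 lower (Postn, Tnc, Spp1 and Has1) and 0 higher with unscaled sums. Against WT MMTV-CAF they had 4 lower (Postn, Tnc, Has1 and Has2) and 0 higher with unscaled sums.

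H3K27ac summits were also joined over gaps of up to the usual stitching distance and the clusters ranked by summed −log10 p, an approximation of super-enhancer calling. A super-enhancer reached the window of 3, 4 and 2 members in WT, KI and SG MEF, against 10.4%, 4.07% and 11.5% of all genes. The counts were 3 and 5 in WT and SG MMTV-CAF (10.9% and 10.5%) and 4 and 5 in WT and SG wound-healing fibroblasts (7.39% and 11.8%). Sparc was in this class in all 7 lists, and so was Has1 when its flank is counted, though in KI MEF and WT wound-healing fibroblasts the cluster ended 4673 and 2779 bp from the Has1 body, on the side of Ncrna00085. The Sparc cluster ranked 79 of 18313 in WT MEF, 335 of 13518 in KI MEF and 28 of 17687 in SG MEF. It ranked 101 of 18506 in WT and 912 of 19061 in SG MMTV-CAF, and 31 of 13901 in WT and 278 of 18052 in SG wound-healing fibroblasts. Thbs2 was in the super-enhancer class in MMTV-CAF and wound-healing fibroblasts of both genotypes and in no MEF list. Postn, Tnc and Spp1 were in this class in no list.

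A list of 44 related genes (other thrombospondins, tenascins, CCN proteins, SPARC relatives, fibulins, hyaluronan enzymes and binders, and matrix receptors) gave the wider setting. H3K27ac in this list was lower at 5 and higher at 6 of 29 tested in KI MEF, 3 and 2 of 29 in SG MEF, 3 and 4 of 35 in SG MMTV-CAF, and 7 and 3 of 27 in SG wound-healing fibroblasts. Of all genes tested, 20.5% and 8.03%, 4.26% and 6.37%, 6.06% and 8.31%, and 5.70% and 7.24% were lower and higher. Widths were narrower at 4 and wider at 0 of 17, 4 and 0 of 22, 4 and 2 of 29, and 3 and 4 of 24 in the same order, against 25.1% and 0.506%, 5.04% and 0.595%, 5.89% and 4.99%, and 1.73% and 11.6% of all genes tested. PRRX1 summits lay at 9, 20 and 16 of the 44 in MEF, MMTV-CAF and wound-healing fibroblasts, against 7.04%, 22.1% and 16.8% of all genes.

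Among the related genes, Fbln5, whose product fibulin 5 takes part in elastic fibre assembly, had a share of 63.1 in WT MEF and was listed at 0 in KI MEF, and it was 2.36-fold lower in SG MMTV-CAF and 4.10-fold lower in SG wound-healing fibroblasts. In SG MEF it was 58.6, within the fold. Nov, a CCN protein gene, was 3.26-fold lower in KI MEF and 2.80-fold lower in SG MEF. In SG MMTV-CAF it was 1.73-fold higher, within the fold, and in SG wound-healing fibroblasts it was 11.5 against a listed 0 in WT. Has3, the remaining hyaluronan synthase gene, was listed at 0 in SG MMTV-CAF against 59.9 in WT and stood at 31.5 against 70.9 in SG wound-healing fibroblasts, while SG MEF had 16.9 against a listed 0 in WT. Some genes were higher in deleted cells. Smoc2, a SPARC relative, was 12.7-fold higher in KI MEF, 2.72-fold in SG MMTV-CAF and 2.29-fold in SG wound-healing fibroblasts, but was listed at 0 in SG MEF against 24.0 in WT. Smoc1, also a SPARC relative, was 7.79-fold higher in SG MMTV-CAF and was at 101 against a listed 0 in KI MEF, and was listed at 0 in both lists of the other pairs. Fbln1 differed in sign between deletions, at 2.47-fold lower in KI MEF and 2.16-fold higher in SG MEF, with 38.3 against a listed 0 in SG wound-healing fibroblasts.

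In H3K4me3 width, Wisp1, a CCN protein gene, was 1.79-fold narrower in SG MMTV-CAF and 1.67-fold narrower in SG wound-healing fibroblasts, and in WT lists was widest in MMTV-CAF at 9334 bp. Tgm2, the gene of a transglutaminase that crosslinks matrix proteins, was 2.38-fold narrower in SG MEF and 2.55-fold in SG wound-healing fibroblasts. Tnfaip6, whose product binds hyaluronan, was 1.65-fold and 2.56-fold narrower in KI and SG MEF and was 1830 bp against 815 bp in SG wound-healing fibroblasts. Tgfbi, the gene of a protein related to periostin, was 605 bp wide in WT MEF, 3608 bp in WT MMTV-CAF and 356 bp in WT wound-healing fibroblasts.

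The H3K27ac shares of each member, as log2(share + 1), over the 7 lists were compared with those of the 52 other member and related genes. The highest Pearson r, given as a description over 7 lists that share their normalisation, joined Tnc to Itgb1 (0.96), Has2 to Tnr (0.93), Spp1 and Has1 to each other (0.92), Fn1 to Cyr61 (0.86), Postn to Tnc (0.83) and Thbs1 to Fn1 (0.83). Thbs2 was most like Cd44 (0.74) and Sparc most like Fbln2 (0.73). Listed zeros enter these values. Tnc was at 0 in SG MEF and SG MMTV-CAF, where Itgb1 had its lowest shares (81.3 and 83.1). Spp1 was at 0 in KI MEF and WT wound-healing fibroblasts, the shortest H3K27ac lists, where Has1 was lowest (83.7 and 80.3). The Has1 window also holds the promoter of Ncrna00085. What zeros, list size and this promoter add to r was not tested.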

How the data were processed

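ChIP-seq peak lists of 17 libraries were used, with 1 library per group. Per the study's methods, the authors trimmed the reads (Trimmomatic), mapped them to mm9 (Bowtie), discarded duplicate reads and ran MACS2 with the matching input. H3K27ac and PRRX1 files, as deposited, give summit positions with a −log10 p-value. The PRRX1 values reach down to 3.00, below the cutoff that the methods name for sharp peaks, and the cutoff used for them was not given in the sources used here. H3K4me3 files, as deposited, give regions with a fold over input (a ratio), a −log10 p, a −log10 q-value and a score, and the last pair was not used. Sequencing depth is unknown.

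Starts came from GENCODE genes of mm9, and the widest H3K4me3 region over any annotated start was used. Python 3.11.15, numpy 2.4.6 and pysam 0.24.0 were used, and the reading of summits and widths and both fold calls were tested on simulated data, each as planted at 200 of 200 genes. All 9 members are named, and of 44 related genes the first 10, in list order, called in at least 2 deletion comparisons in 1 direction or in all 3 WT comparisons. For each member the gene most like it in H3K27ac share is named too. Crispld2 and Insrr were named after their values were seen. Members and lists were chosen with earlier results of these data known. Alternatives were flanks of 0 or 50 kb, a minimum −log10 p, lists cut to 29325 summits, unscaled sums, widths over the list median, other distances and stitching within 5 kb. Width calls within 1 kb of a start were added after seeing the data.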

Additional observations from a re-analysis of the deposited data

Results flagged for a closer look

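Has2 had a narrower H3K4me3 region in both Prrx1-deleted MEF lists than in WT MEF, at -0.62 (KI MEF) and -0.61 (SG MEF) on the log2 scale, and a wider one in SG than in WT wound-healing fibroblasts, at 1.18. The MEF and wound-healing comparisons moved in opposite directions, each with 1 library per group, and the difference between the types was not tested. With widths divided by the median of each list, the ratios were -0.33, -0.51 and 0.99, so neither MEF ratio was past 1.5-fold. The WT wound list held a further region of 326 bp within the span of the single SG region. The KI and SG MEF ratios share the WT MEF list. Over all genes tested, the median log2 width ratio was -0.33 in KI MEF, -0.09 in SG MEF and 0.18 in SG wound-healing fibroblasts, which are the same directions.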

How the results depend on the processing

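No paired analysis was possible because every group has 1 library, and no library could be left out for the same reason. Of the counts and shares that answer a comparison, 78 values under an alternative stayed close to the reported one and 41 moved. The counts of members below stand without the share of all genes under the same setting. Members past 2-fold in H3K27ac share, in either direction, came to 2 in KI MEF, 2 in SG MEF, 2 in WT MMTV-CAF against WT MEF and 2 in WT wound against WT MEF without the flank. With 50 kb flanks they came to 1 in KI MEF, 1 in SG MMTV-CAF, 1 in SG wound, 2 in WT MMTV-CAF against WT MEF and 2 in WT wound against WT MMTV-CAF. With lists of equal size they came to 2 in SG MEF, 1 in SG MMTV-CAF, 2 in WT MMTV-CAF against WT MEF and 2 in WT wound against WT MEF. WT MMTV-CAF against WT MEF gave 3 with a minimum −log10 p of 10 and 3 with unscaled sums. By direction, WT wound against WT MEF went from 3 lower and 1 higher to 0 and 2 without the flank and to 4 and 0 unscaled, SG wound from 1 and 1 to 3 and 0 and to 0 and 3, and SG MMTV-CAF from 1 and 1 to 0 and 2 without the flank. Members past 1.5-fold in H3K4me3 width came to 1 each in KI MEF and SG MEF (Has2 lost in both) and in WT MMTV-CAF against WT MEF when divided by the list median, and to 2 in each comparison of WT types with a minimum −log10 p of 10. Within 1 kb of a start, 5 members had a region in KI MEF. Cut to equal size, KI MEF kept 46.4% of the members' WT summits. PRRX1 summits came to 1, 2 and 1 (MEF, MMTV-CAF, wound) at 1, 2 and 1 members with a minimum of 10, to 6, 22 and 15 with 50 kb flanks, at 6 members in MEF, and to 4 at 3 members in MMTV-CAF without the flank. Those near H3K27ac came to 3 in MMTV-CAF and 0 in wound within 250 bp, and to 4 in wound within 1000 bp. Stitching within 5 kb left super-enhancers at 2 members in KI MEF, 1 in SG MEF and 1 in WT MMTV-CAF. The Fn1 H3K27ac ratio of KI MEF reversed to -0.34 (log2) with unscaled sums. Of the values of single genes, 472 kept their call or stayed close, 126 moved, 28 came to be called past a fold and 22 were no longer called past one. A gene left with too few summits counts as not called, even where its ratio was past the fold. Of 357 log2 ratios of single genes under an alternative, 40 that were within the fold as reported changed sign. Of these, 3 were called past the fold in the other direction (KI MEF against WT MEF at Tnc, 1.02 with lists of equal size, and at Postn, -1.41 unscaled, and WT MMTV-CAF against WT MEF at Fn1, 1.04 without the flank). Ratios left with too few summits to be called are not among these 3. The Tnc ratio of KI MEF without the flank, which turned from below WT to past the fold above it, was such a ratio. Apart from the effect of fewer summits or regions in an alternative's own construction, the cause was not tested.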
